A study of Mus musculus with 16 samples.

Results

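The genes examined here build and supply MHC class I, the complex that displays peptides from inside a cell to CD8+ T cells. They are H2-K1 and H2-D1, B2m, Nlrc5, Tap1, Tap2, Tapbp, Psmb8, Psmb9 and Psmb10, taken by symbol from a table of gene expression in mouse tumour cells. All 10 were found among the 24334 genes of the table, and all 10 were among the 15715 genes that passed the filter on low values. The cells were enriched from tumours of LLC1, a line of mouse Lewis lung carcinoma, after 16 days of treatment. Vehicle mice received DMSO. TMP195 mice received an inhibitor of class IIa histone deacetylases at 50 mg/kg, and MYCi975 mice received a small molecule that binds and inhibits the transcription factor MYC, also at 50 mg/kg. Combo mice received both compounds, at doses that are not stated. Each of the 4 groups holds 4 libraries, numbered 1 to 4. LLC1 is a single established line grown in a host, so host leukocytes and stroma can remain in the enriched fraction. For the strain, sex and age of the hosts and for the enrichment step, the sources used here give nothing.

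Class I molecules consist of a heavy chain (H2-K1 or H2-D1) held by the small invariant subunit that B2m encodes. Peptides are cut by the proteasome, in which Psmb8, Psmb9 and Psmb10 replace the constitutive catalytic subunits Psmb5, Psmb6 and Psmb7 to form the immunoproteasome. The Tap1 and Tap2 proteins then pump the peptides into the endoplasmic reticulum, where tapasin, the product of Tapbp, holds the empty class I molecule at the transporter. Nlrc5 is the transactivator of this gene set and acts on class I promoters together with the RFX and NF-Y complexes and with CREB family factors. Interferons raise all of these genes, and many carcinoma lines express them at low levels until interferon is present. Leukocytes express them at high levels, which is why Ptprc, the gene of the leukocyte surface phosphatase CD45, was set beside them.

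The stretches before the start sites of 4 members are printed because the heavy chains and B2m carry the elements through which these regulators are known to act, and because Tap1 and Psmb9 start from a shared stretch. RefSeq (GRCm38.p6) start sites were at hand for 8 members, and for H2-K1 the first listed of 2 start sites was used. Each sequence holds the 250 bases before the start, 5′ to 3′ on the strand of the gene. Capitals mark matches, on either strand, to GGGATTCCC (an NF-kappaB site), AANNGAAA (the core of an interferon-stimulated response element, bound by IRF factors), TGACG (the core of a CREB site) and CCAAT (the core of an NF-Y site).
H2-K1 (chr17:34000348-34000597, minus strand): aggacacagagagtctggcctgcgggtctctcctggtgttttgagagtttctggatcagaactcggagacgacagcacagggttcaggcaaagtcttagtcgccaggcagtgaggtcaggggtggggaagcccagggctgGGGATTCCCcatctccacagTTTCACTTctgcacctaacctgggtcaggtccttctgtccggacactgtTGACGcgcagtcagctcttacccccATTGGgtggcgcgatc
H2-D1 (chr17:35262844-35263093, plus strand): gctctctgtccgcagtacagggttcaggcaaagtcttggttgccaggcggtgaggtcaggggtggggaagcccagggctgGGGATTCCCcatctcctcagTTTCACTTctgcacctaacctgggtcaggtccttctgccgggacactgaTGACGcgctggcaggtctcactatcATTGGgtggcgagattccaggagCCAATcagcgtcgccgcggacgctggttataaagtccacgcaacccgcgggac
B2m (chr2:122147437-122147686, plus strand): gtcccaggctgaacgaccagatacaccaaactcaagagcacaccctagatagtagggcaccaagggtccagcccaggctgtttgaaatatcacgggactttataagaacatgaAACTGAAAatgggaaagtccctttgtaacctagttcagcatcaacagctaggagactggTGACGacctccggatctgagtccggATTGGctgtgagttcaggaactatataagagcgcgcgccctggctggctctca
Tap1 (chr17:34187306-34187555, plus strand): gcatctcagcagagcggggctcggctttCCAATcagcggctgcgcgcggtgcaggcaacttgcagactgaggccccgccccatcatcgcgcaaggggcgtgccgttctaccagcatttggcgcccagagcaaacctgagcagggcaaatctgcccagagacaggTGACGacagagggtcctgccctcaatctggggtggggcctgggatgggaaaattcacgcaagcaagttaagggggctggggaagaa
In both heavy chain genes the order is the same, an NF-kappaB match, an IRF core, a CREB core and a reversed CCAAT. The H2-K1 and H2-D1 windows of 300 bases matched at 176 of 240 bases (73.3%) at the best offset without gaps. B2m holds an IRF core, a CREB core and a reversed CCAAT. For NF-kappaB only the exact letters GGGATTCCC were searched. Other forms of that site, in B2m or elsewhere, would not be marked, so a missing match does not show that a site is absent. The windows of Tap1 and Psmb9, which run in opposite directions, share 275 bases. Of the windows not printed, Psmb9 holds a CREB core and a reversed CCAAT, and Tapbp holds reversed CCAAT matches only. Psmb8 and Psmb10 hold no match to any of these letters. Among the 8 members with a start site, only H2-K1, H2-D1 and B2m hold an IRF core. Over all 32851 windows of 300 bases, 0.353% hold GGGATTCCC, 23.9% hold AANNGAAA, 20.8% hold TGACG and 37.4% hold CCAAT. These matches describe letters and not binding.

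Values are variance-stabilised and close to a log2 scale, so a difference of 1 is close to a doubling for well expressed genes and understates it for weak ones. The lowest value, 4.84, stands for no reads, and the depth of each library is unknown. Ptprc lay between 5.81 and 8.95. The summed value of 9 leukocyte markers ran from 49.7 to 54.47 in Vehicle libraries, from 51.76 to 62.3 in TMP195, from 49.47 to 58.62 in MYCi975 and from 49.43 to 52.88 in Combo. The sum of 12 macrophage and monocyte markers ran from 69.58 to 76.85, from 72.79 to 87.36, from 69.81 to 74.45 and from 70.19 to 75.92 in the same order. The T and NK cell markers in hand averaged 5.07 to 5.81 per library and the B cell markers 4.97 to 5.36, near the lowest value. Of the epithelial markers, Epcam and Cdh1 were near the lowest value while Krt8 and Krt18 were expressed, and the fibroblast list averaged 11.71 to 13.15 per library. Whether collagen and keratin RNA came from LLC1 cells or from host cells was not tested. In bulk RNA, fewer cells of a type and less RNA per cell cannot be told apart.

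No class I gene passed the test in any comparison. The test was limma, a linear model over all 15715 genes with Benjamini-Hochberg adjustment and a threshold of 0.05 on the adjusted p. Against Vehicle, 0% of all genes were called in TMP195, 0% in MYCi975 and 0% in Combo. At an unadjusted p under 0.05 the shares of all genes were 4.88% (767 genes), 3.03% (476) and 4.09% (642). Of the members, 0 in TMP195, 0 in MYCi975 and 1 (Nlrc5) in Combo lay under that p, and no label says whether each library is a separate animal.

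H2-K1, a classical heavy chain, spanned more within each group than between any pair of group means. Its values were 11.03, 11.24, 10.93 and 12.11 in Vehicle libraries 1 to 4, and 11.73, 11.20, 11.53 and 10.31 in TMP195. They were 11.19, 10.91, 11.69 and 11.54 in MYCi975, and 10.92, 11.42, 10.42 and 10.36 in Combo. Vehicle replicate 4 was the highest of the 16 libraries and TMP195 replicate 4 the lowest, and every pair of groups overlapped. The group means ± SD (n = 4 each) were 11.3 ± 0.539 in Vehicle, 11.2 ± 0.626 in TMP195, 11.3 ± 0.353 in MYCi975 and 10.8 ± 0.497 in Combo. The difference from Vehicle was -0.13 ± 0.31 (SE) in TMP195 and -0.55 ± 0.31 in Combo. The exact two-sided permutation test of 4 against 4 libraries gave p = 0.771 and p = 0.2, where the smallest p this design allows is 0.0286.

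H2-D1, the other classical heavy chain, followed H2-K1 closely across libraries. It ran from 13.4 to 14.4 in Vehicle, from 12.7 to 14.2 in TMP195, from 13.29 to 14.01 in MYCi975 and from 13.0 to 13.7 in Combo. The same 2 libraries, Vehicle replicate 4 and TMP195 replicate 4, held the highest and the lowest value. Its difference from Vehicle was -0.11 ± 0.28 (SE) in TMP195 and -0.37 ± 0.28 in Combo. Reads shared between H2-K1, H2-D1 and the H2-Q genes, which are near-identical over long stretches, may have been split between them in quantification, so the value of each heavy chain alone is uncertain.

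B2m, the subunit shared by all class I molecules, was 14.25, 14.71, 14.04 and 14.41 in Vehicle libraries 1 to 4, and 14.52, 14.39, 14.60 and 12.95 in TMP195. It was 14.60, 14.18, 14.30 and 13.89 in MYCi975, and 14.34, 14.20, 13.65 and 13.19 in Combo. In TMP195, 3 of 4 libraries lay above the Vehicle mean while replicate 4 was the lowest of all 16. In Combo all 4 libraries lay below the Vehicle mean of 14.4, although the groups overlapped. The differences were -0.24 ± 0.31 (SE) in TMP195 and -0.51 ± 0.31 in Combo.

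Nlrc5, the transactivator, had the largest difference of the 10 members in Combo. It was 10.14, 11.02, 10.69 and 11.38 in Vehicle libraries 1 to 4, and 11.28, 10.82, 10.89 and 9.44 in TMP195. It was 10.73, 10.30, 11.44 and 10.95 in MYCi975, and 10.13, 10.75, 9.69 and 9.58 in Combo. All 4 Combo libraries lay below the Vehicle mean of 10.8 and below the MYCi975 mean of 10.9, and the ranges overlapped. Against Vehicle the difference in Combo was -0.77 ± 0.36 (SE), with a limma p of 0.0483 and an adjusted p of 0.987. Against MYCi975 it was -0.82, with a limma p of 0.0374 and an adjusted p of 1. The exact permutation tests gave p = 0.114 and p = 0.0857. Without the libraries numbered 4 the difference from Vehicle was -0.43, with a limma p of 0.188. In TMP195 Nlrc5 differed from Vehicle by -0.20 ± 0.36.

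**Figure D1:**
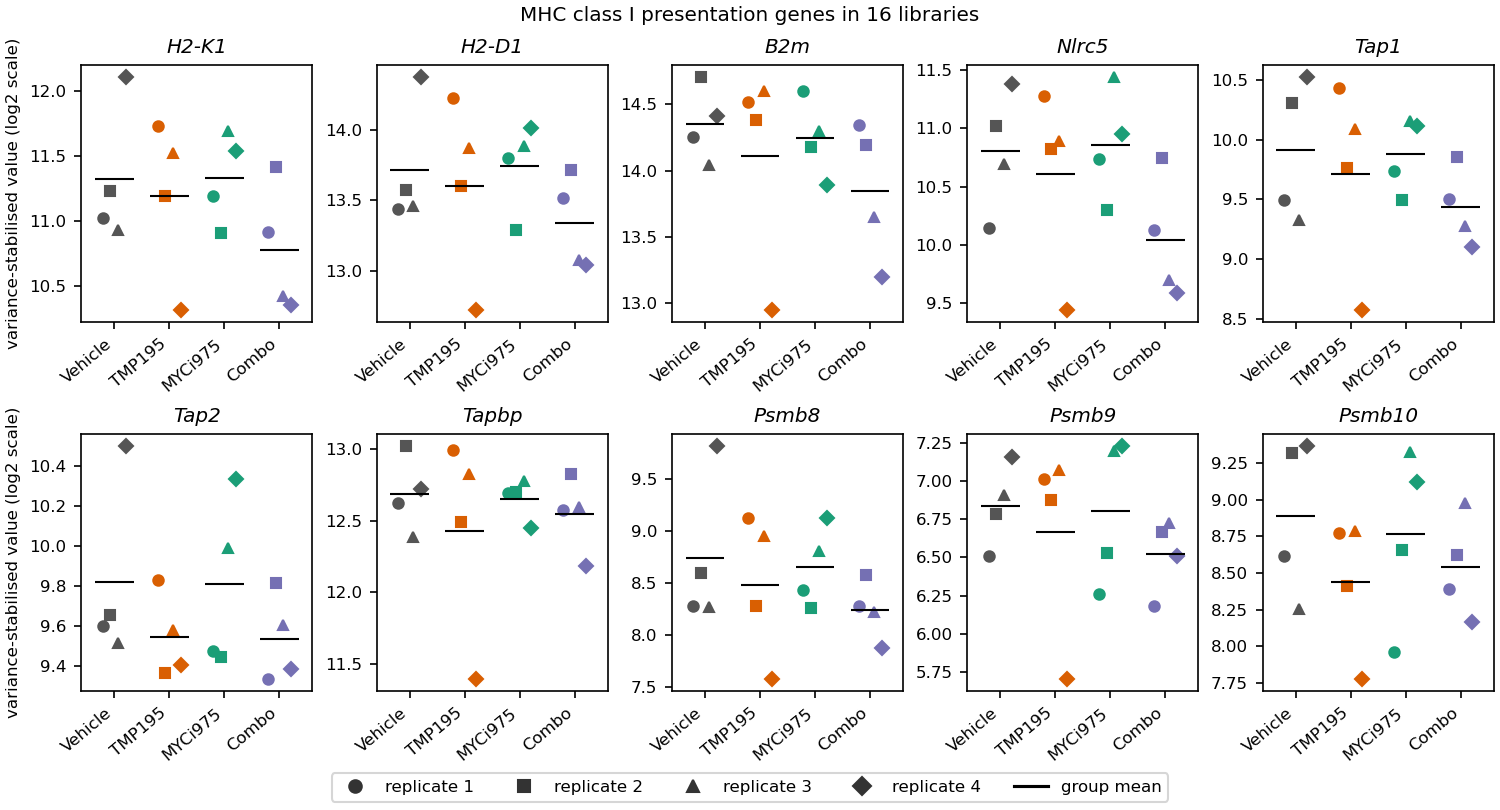
Variance-stabilised value (log2 scale, y axis) of each of the 10 class I genes in the 4 groups (x axis), with 1 point per library, the symbol giving the replicate number and the bar the group mean. TMP195 replicate 4 (orange diamond) is the lowest library for 9 of 10 genes, and the groups overlap in every panel.

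The peptide transporter and its partner varied in the same way, with the exception of Tap2. Tap1 was 9.50, 10.30, 9.33 and 10.52 in Vehicle libraries 1 to 4, and 10.43, 9.77, 10.09 and 8.57 in TMP195. It was 9.74, 9.50, 10.15 and 10.11 in MYCi975, and 9.50, 9.86, 9.28 and 9.11 in Combo. All 4 Combo libraries were below the Vehicle mean of 9.91, and in TMP195 the libraries lay on both sides of it. The differences from Vehicle were -0.20 ± 0.33 (SE) in TMP195 and -0.48 ± 0.33 in Combo.

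Tap2, the second subunit of the transporter, had the narrowest range of the 10 members, from 9.33 to 10.5 over the 16 libraries. Its lowest library was Combo replicate 1, and TMP195 replicate 4, the lowest for the other 9 members, was 9.40 and ranked 4 from the lowest. The differences were -0.27 ± 0.22 (SE) in TMP195 and -0.28 ± 0.22 in Combo. Tapbp, which encodes tapasin, ran from 11.4 in TMP195 replicate 4 to 13.0 in Vehicle replicate 2. Its group ranges were 12.4 to 13.0 in Vehicle, 11.4 to 13.0 in TMP195, 12.4 to 12.8 in MYCi975 and 12.2 to 12.8 in Combo, and all overlapped. Its difference in Combo, -0.14 ± 0.25, was the closest to 0 of the 10, and in TMP195 it was -0.26 ± 0.25.

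Among the immunoproteasome subunits, Psmb8 had the widest range of all 10 members. It was 8.28, 8.60, 8.27 and 9.82 in Vehicle libraries 1 to 4, and 9.12, 8.28, 8.95 and 7.58 in TMP195. It was 8.44, 8.27, 8.82 and 9.13 in MYCi975, and 8.29, 8.58, 8.22 and 7.88 in Combo. The library numbered 4 was the highest in Vehicle and in MYCi975 and the lowest in TMP195 and in Combo. The differences from Vehicle were -0.26 ± 0.35 (SE) in TMP195 and -0.50 ± 0.35 in Combo.

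Psmb9 was the closest of the members to the lowest value, from 5.70 in TMP195 replicate 4 to 7.23 in MYCi975 replicate 4, so its differences are compressed. They were -0.17 ± 0.28 (SE) in TMP195 and -0.32 ± 0.28 in Combo. Psmb10 ran from 7.78 in TMP195 replicate 4 to 9.37 in Vehicle replicate 4. It was the member farthest below Vehicle in TMP195, at -0.45 ± 0.31, with all 4 libraries below the Vehicle mean, and it differed by -0.35 ± 0.31 in Combo. The constitutive subunits Psmb5, Psmb6 and Psmb7, which the immunoproteasome subunits replace, differed from Vehicle by -0.16 to -0.02 in the 3 treated groups, with standard errors of 0.13 to 0.14 and adjusted p-values of at least 0.951.

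**Figure D2:**
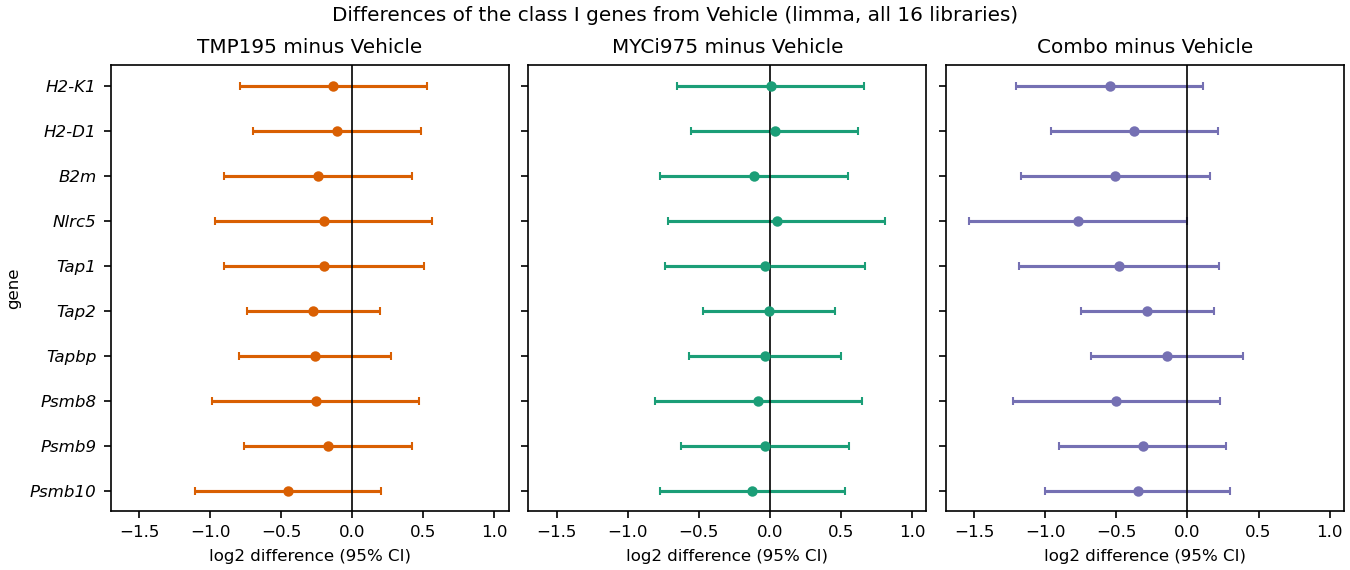
Difference of each class I gene from Vehicle (x axis, log2 scale) in TMP195, MYCi975 and Combo, with points for the limma estimate over 16 libraries and bars for its 95% confidence interval. All 10 points lie below 0 in TMP195 and in Combo, and every interval reaches 0 except that of Nlrc5 in Combo, which ends just below it before adjustment.

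As a list, the members lay below Vehicle in TMP195 and in Combo and near it in MYCi975, and no member passed the test. In TMP195 the median difference of the 10 was -0.22, with 10 of 10 below 0 and a range of -0.45 to -0.11, beside a median of -0.01 over all genes tested. In MYCi975 the median was -0.03, with 7 of 10 below 0 and a range from -0.12 (Psmb10) to 0.05 (Nlrc5); after quantile normalisation that median was 0.0082. In Combo it was -0.43, with 10 of 10 below 0 and a range from -0.77 (Nlrc5) to -0.14 (Tapbp). The standard errors of single members were 0.22 to 0.36, and the smallest adjusted p of a member was 0.945, 0.999 and 0.987 in limma. In 0 of the 10 members did the libraries of a treated group and of Vehicle fail to overlap, beside 2.5% of all genes in TMP195, 1.5% in MYCi975 and 3.32% in Combo. The 3 comparisons share the Vehicle libraries and are not independent, and the members move together across libraries, so 10 of 10 is not a count of 10 separate observations.

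The median difference in TMP195 changed with single libraries. It was 0.15 with 8 of 10 members above 0 without TMP195 replicate 4, and -0.029 with 4 of 10 above 0 without Vehicle replicate 4. It was -0.40 without TMP195 replicate 1 and -0.35 without Vehicle replicate 3. Without all 4 libraries numbered 4 it was 0.32, with 8 of 10 members above 0. In Combo the median was -0.20 without Vehicle replicate 4, -0.30 without Combo replicate 4 and -0.11 without the libraries numbered 4, where 10 of 10 members still lay below 0. In MYCi975, where the median was close to 0, leaving out any 1 of 8 libraries moved it by over 1.5 times, from -0.14 without Vehicle replicate 1 to 0.19 without Vehicle replicate 4.

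Combo was also set against each compound alone. Against MYCi975, 0% of genes were called and 2.32% lay under an unadjusted p of 0.05. The members' median was -0.40, with 10 of 10 below 0, and Nlrc5 was the 1 member under that p. Against TMP195, 0% were called and 5.33% lay under it. The median was -0.25 with 8 of 10 below 0, H2-K1 differed by -0.41 and Nlrc5 by -0.57, and 0 members lay under that p. The interaction, Combo minus MYCi975 minus TMP195 plus Vehicle, called 0% of genes, with 3% under it. The members' median interaction was -0.16 and the values ran from -0.62 (Nlrc5) to 0.23 (Psmb10), with H2-K1 at -0.42, standard errors of 0.31 to 0.51 and 0 members under that p. Without the libraries numbered 4 the medians of the 3 comparisons were -0.18, -0.45 and -0.505. No member passed the test there, with adjusted p-values in limma of at least 0.68. At an unadjusted limma p under 0.05, 0, 4 and 3 of the 10 members lay there, in the same order. The shares of all genes under that p without those libraries are not given here. With single libraries left out, Combo minus TMP195 was -0.035 without TMP195 replicate 1, -0.094 without TMP195 replicate 3, -0.55 without TMP195 replicate 4 and -0.13 without Combo replicate 4. The interaction moved by over 1.5 times without any 1 of 11 of the 16 libraries (Vehicle 1, 3 and 4, TMP195 1, 3 and 4, MYCi975 1, 2 and 4, Combo 2 and 4), from -0.50 without TMP195 replicate 4 to 0.0022 without TMP195 replicate 1.

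Other genes of class I presentation lay on both sides of Vehicle in TMP195 and mostly below it in Combo. These 17 genes are mostly peptide trimming enzymes, chaperones, proteasome activators and non-classical heavy chains. The list also holds Sppl2a, which is in none of these classes. In TMP195, 10 were above 0 and 7 below, with a median of 0.03, and 0 of 17 passed the test. The smallest p-values there belonged to Lnpep, an aminopeptidase of the endosomal route, at 0.20 ± 0.11 (SE), and Tapbpl, a tapasin homologue, at -0.33 ± 0.19. In MYCi975, 10 were above 0 and 7 below with a median of 0.01, led by Sppl2a at -0.13 ± 0.14 and H2-M3, which presents formylated peptides, at 0.13 ± 0.19. In Combo, 4 were above 0 and 13 below with a median of -0.18, led by Tapbpl at -0.40 ± 0.19 and the non-classical chain H2-Q6 at -0.60 ± 0.33. None of the 17 passed the test in these 3 comparisons, with adjusted p-values in limma of at least 0.945.

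The regulators of class I transcription and the interferon signalling genes gave 24 tested genes of 25 listed, since Ifng was below the filter. In TMP195, 7 were above 0 and 17 below with a median of -0.05, and Nfya and Nfyb, both subunits of NF-Y, differed by -0.37 ± 0.13 and -0.37 ± 0.15 (SE). Their unadjusted limma p-values were 0.0149 and 0.0295, and the adjusted p was 0.945 for both. In MYCi975, 11 were above and 13 below, with the interferon gamma receptor chain Ifngr2 at -0.26 ± 0.16 and the signal transducer Stat2 at 0.39 ± 0.24. In Combo, 4 were above and 20 below with a median of -0.13, with the NF-kappaB subunit Rela at -0.22 ± 0.12.

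Irf1 is an interferon-induced factor that binds class I promoters. It differed from Vehicle by -0.52 ± 0.34 (SE) in TMP195 and by -0.58 ± 0.34 in Combo. Rfx5, a subunit of the RFX complex with which Nlrc5 acts, differed by -0.11 ± 0.17 and by -0.15 ± 0.17. Neither gene passed the test, with adjusted p-values of at least 0.945.

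The members varied together across the 16 libraries. Over the 45 pairs of members, Pearson's r had a median of 0.731 and ran from 0.199 (B2m with Tap2) to 0.967 (H2-K1 with H2-D1), and Spearman's rho had a median of 0.724. After adjustment over the 45 pairs, 41 had a permutation p under 0.05 by either measure. Within groups, with each value centred on its group mean, the median r was 0.731. With the 2 libraries farthest from the median left out for each pair it was 0.608, and without the libraries numbered 4 it was 0.608. Libraries share preparation and normalisation, and reads shared between H2-K1 and H2-D1 can raise their r.

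Single libraries set the extremes. TMP195 replicate 4 was the lowest library for 9 of 10 members, with a median deviation of -0.98 from the members' own means. Combo replicate 4 was among the lowest 3 for 9 of 10, with a median deviation of -0.59. Vehicle replicate 4 was the highest for 6 of 10, at 0.78, and TMP195 replicate 1 was among the highest 3 for 6, at 0.50. The libraries numbered 4 thus held both ends of the range. The labels do not say what the replicate number stands for.

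**Figure D3:**
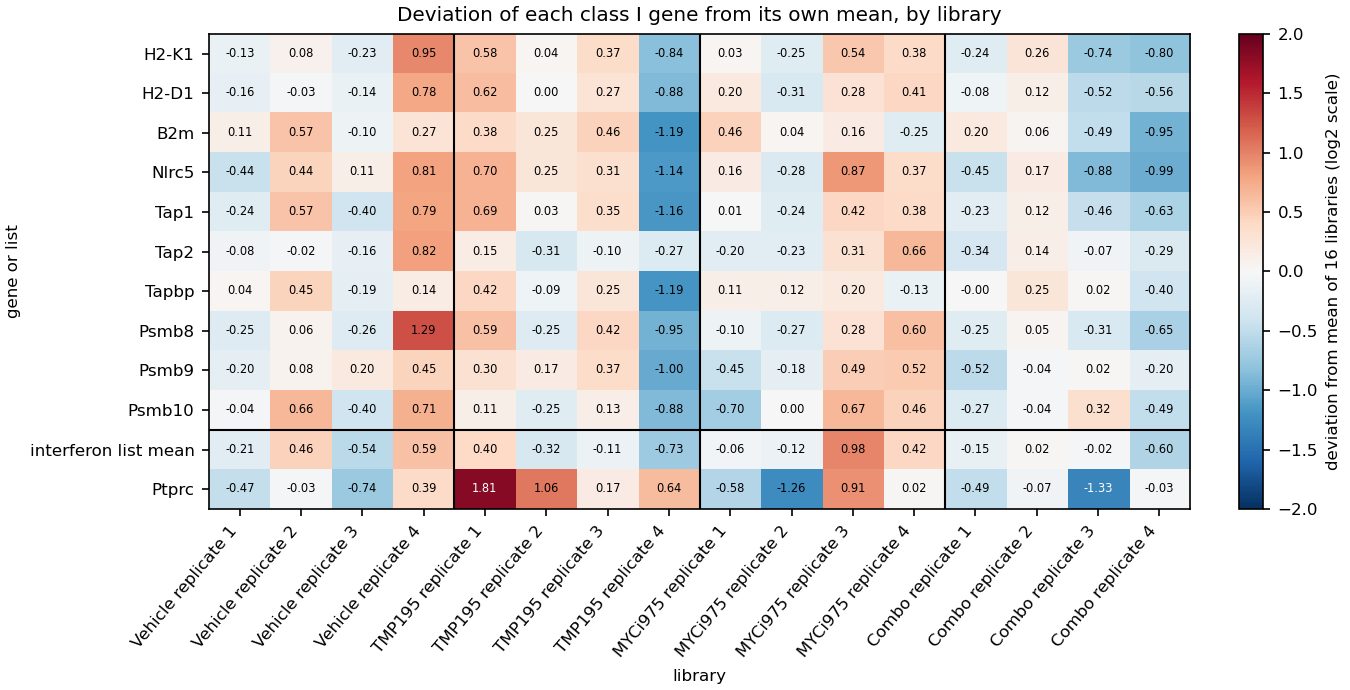
Deviation of each class I gene, of the mean of 30 interferon-induced genes and of Ptprc from its own mean over 16 libraries (log2 scale; red above, blue below), with genes in rows and libraries in columns. In TMP195 replicate 4 all 10 class I genes and the interferon mean are below their means while Ptprc is 0.64 above its own.

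Ptprc tracked the class I genes weakly over all libraries. It was 6.66, 7.10, 6.39 and 7.52 in Vehicle libraries 1 to 4, and 8.95, 8.19, 7.30 and 7.77 in TMP195. It was 6.55, 5.87, 8.04 and 7.16 in MYCi975, and 6.64, 7.06, 5.81 and 7.10 in Combo. All 4 TMP195 libraries lay above the Vehicle mean, by 1.13 ± 0.43 (SE) between the groups, with an adjusted p of 0.945 in limma and an exact permutation p of 0.0571. The Combo libraries lay below all TMP195 libraries, by -1.40, with an exact permutation p of 0.0286, the smallest possible, and an adjusted limma p of 0.633. Of all 15715 genes tested, 255 lay lower in Combo than in TMP195 without overlap and 275 higher, so Ptprc is 1 of many. TMP195, the group with the highest mean of Ptprc, had means below Vehicle for 10 of 10 members. Without TMP195 replicate 4, 8 of 10 members lay above Vehicle, with a median difference of 0.15.

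Pearson's r of the 10 members with Ptprc over 16 libraries ran from 0.01 (Tapbp) to 0.48 (H2-K1), with a median of 0.308. After Benjamini-Hochberg adjustment over the 20 relations computed, 0 of 10 had a permutation p under 0.05. For H2-K1, r was 0.48 (permutation p = 0.0605, adjusted 0.109) and Spearman's rho was 0.568 (p = 0.0237, adjusted 0.0475). For Nlrc5, r was 0.472 (permutation p = 0.0654, adjusted 0.109) and rho was 0.559 (p = 0.0267, adjusted 0.0485). Without Combo replicate 3 and TMP195 replicate 1, the 2 libraries farthest from the median of Ptprc, r was 0.265 for H2-K1 and 0.26 for Nlrc5. It went from 0.279 to 0.268 for Tap2 and from 0.277 to 0.247 for Psmb9, and it rose from 0.119 to 0.215 for Psmb10. With values centred on their group mean the median r was 0.51 and 2 members passed. Centred on the mean of their replicate number it was 0.369 and 3 passed.

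The relation to Ptprc was different in the 12 libraries numbered 1 to 3. There r ran from 0.237 (Psmb10) to 0.834 (H2-D1), with a median of 0.659, and 5 of 10 members passed. H2-K1 had r = 0.832 (permutation p = 0.00073, adjusted 0.0073), H2-D1 had an adjusted permutation p of 0.0073, Nlrc5 had r = 0.794, Tap1 r = 0.795 and Psmb8 r = 0.732. Without TMP195 replicate 4 alone, 4 members passed. That library ranked 13 of 16 from the lowest for Ptprc and 1 for the members. The change of r between the 16 and the 12 libraries was not tested. The libraries left out held both ends of the members' range, so the p-values without them are a description only.

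**Figure D4:**
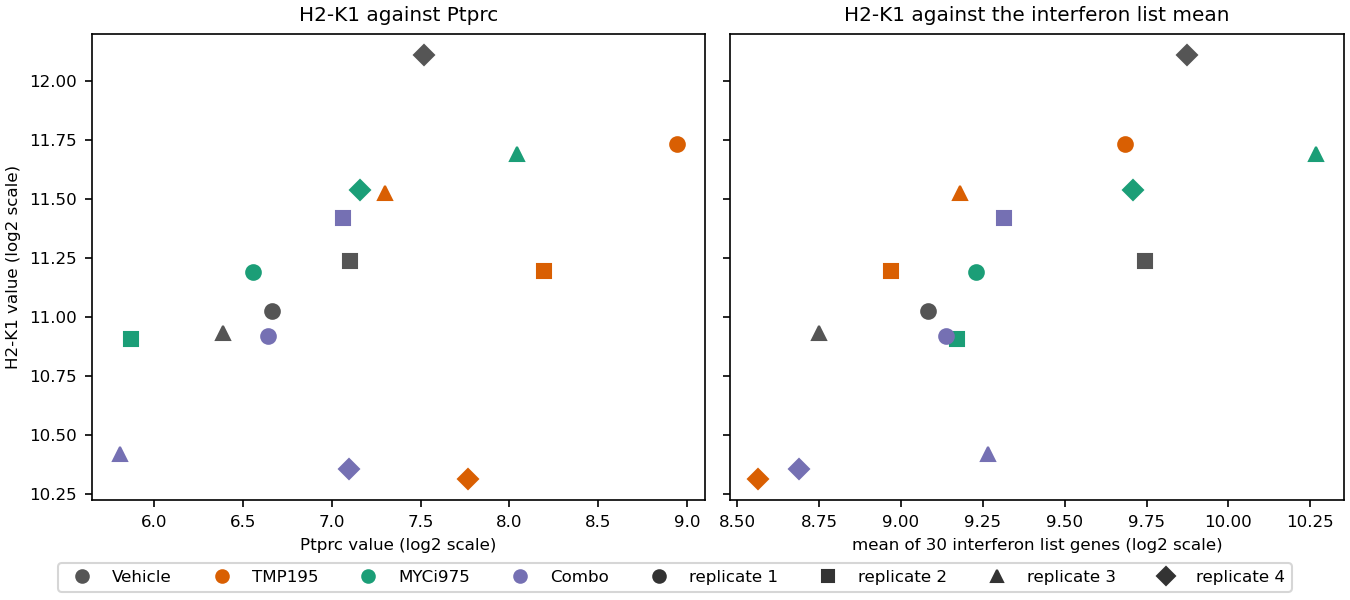
Value of H2-K1 (y axis, log2 scale) against Ptprc (left) and against the mean of 30 interferon-induced genes (right), with 1 point per library, the colour giving the group and the symbol the replicate number. On the left TMP195 replicate 4 and Combo replicate 4 lie below the other libraries of like Ptprc, and on the right both sit at the low end of the interferon mean.

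For all 10 members, r with interferon-induced genes over 16 libraries was higher than r with Ptprc. The difference between the 2 was not tested. In the 12 libraries numbered 1 to 3 the order by median r was reversed, 0.659 with Ptprc and 0.608 with those genes. The measure was the mean of 30 interferon-induced genes, among them Irf1, Isg15 and Gbp2, with none of the members in it. A mean of 30 genes and the single gene Ptprc are unlike measures, so the 2 sets of r are not like for like. Over the 16 libraries Pearson's r ran from 0.55 (B2m) to 0.863 (Psmb10), with a median of 0.765. After adjustment over the 20 relations, 9 of 10 members had a permutation p under 0.05, and B2m had an adjusted permutation p of 0.0541. For Tap1, r was 0.841 (permutation p = 4e-05, adjusted 0.0004) and Spearman's rho was also 0.841. For H2-K1, r was 0.778 (permutation p = 0.00039, adjusted 0.00172) and rho was 0.788. Without MYCi975 replicate 3 and Vehicle replicate 4, the 2 libraries farthest from the median of the interferon mean, r ran from 0.566 to 0.868. Centred on group means, the median r was 0.763 and 9 members passed.

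Here too the libraries numbered 4 mattered. In the other 12 libraries r with the interferon mean ran from 0.28 (B2m) to 0.788 (Tap2), with a median of 0.608, and 4 members passed, namely Tap1, Tap2, Tapbp and Psmb10. These differ from the members that passed with Ptprc in the same 12 libraries, except for Tap1. As with Ptprc, the p-values in these 12 libraries are a description only. Ptprc and the interferon mean were themselves related by r = 0.313 (permutation p = 0.238) and rho = 0.232 (permutation p = 0.386) over 16 libraries, and by r = 0.259 without the 2 farthest. In TMP195 replicate 4 the interferon mean was 8.56, the lowest of the 16 libraries, and in Combo replicate 4 it was 8.69, the next lowest.

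**Figure D5:**
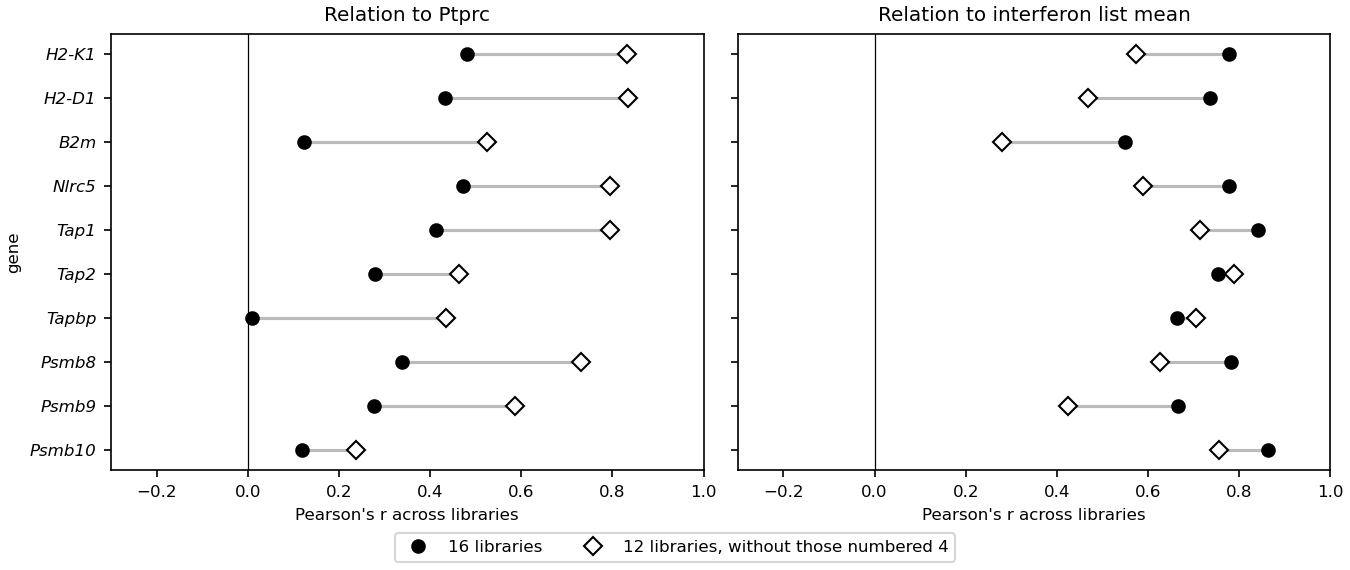
Pearson's r across libraries (x axis) of each class I gene with Ptprc (left) and with the mean of 30 interferon-induced genes (right), over all 16 libraries (filled circles) and over the 12 libraries numbered 1 to 3 (open diamonds). With Ptprc every gene moves to a higher r without the libraries numbered 4, and with the interferon mean 8 of 10 move to a lower one.

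Between groups, the interferon list had a median below Vehicle in TMP195 and Combo and above it in MYCi975, and each value changed with single libraries. The 30 genes had a median difference from Vehicle of -0.22 in TMP195 (28 below 0), 0.19 in MYCi975 (27 above 0) and -0.26 in Combo (27 below 0). None passed the test, with adjusted p-values in limma of at least 0.945. Zbp1, a sensor of nucleic acids in Z form, had the smallest p in TMP195, at -0.48 ± 0.21 (SE). In MYCi975 it differed by 0.50 ± 0.21 and the antiviral enzyme Rsad2 by 0.64 ± 0.29. In Combo the smallest p-values were those of Irf1 and of Dtx3l, a ubiquitin ligase, at -0.36 ± 0.25. The medians of the interferon list were also computed with libraries left out, an alternative chosen after seeing the data. In TMP195 the median was -0.35 without Vehicle replicate 1, -0.46 without Vehicle replicate 3, -0.066 without Vehicle replicate 4, -0.39 without TMP195 replicate 1 and -0.091 without TMP195 replicate 4. In MYCi975 it was -0.032, with 10 of 30 genes above 0, without MYCi975 replicate 3, and 0.31 and 0.36 without MYCi975 replicates 1 and 2. Without Vehicle replicates 1, 2, 3 and 4 in turn the MYCi975 median was 0.10, 0.33, 0.018 and 0.34. In Combo it was -0.49 without Vehicle replicate 3, -0.095 without Vehicle replicate 4 and -0.15 without Combo replicate 4. Without all libraries numbered 4 the medians were 0.078, 0.30 and 0.024, all above 0. Beside the values over all libraries, the members' medians were -0.22, -0.03 and -0.43.

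With Ptprc added to the model as a covariate, the members' median difference was -0.61 in TMP195, -0.03 in MYCi975 and -0.32 in Combo. In TMP195 the smallest adjusted p of a member was then 1 in limma. There 3 members lay under an unadjusted limma p of 0.05, and in Combo 0 did. The shares of all genes under that p with this covariate are not given here. The median of Combo minus TMP195 turned from -0.25 to 0.26, and that of the interaction from -0.16 to 0.28. With the mean of the 9 leukocyte markers as the covariate, the medians were -0.53, -0.10 and -0.42 against Vehicle. These fits assume that the relation of a gene to the covariate is the same in every library, which the values with and without the libraries numbered 4 do not show. Ptprc itself differed between groups, by 1.13 from Vehicle in TMP195 and by -1.40 from TMP195 in Combo. Group and covariate are therefore partly confounded in these fits. What part of the class I signal came from tumour cells and what part from leukocytes was not separated by these data.

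Outside all lists used here, the 6 named genes whose 16 values were most like the mean of the members were Ifi47 (r = 0.96), Gbp5 (0.951), Gbp6 (0.948), Apol10b (0.94), Gvin1 (0.935) and Irgm2 (0.927). These values of r are a description over 16 libraries, and over the 12 libraries numbered 1 to 3 they ran from 0.823 to 0.931. Ifi47 and Irgm2 encode immunity-related GTPases, and Gbp5 and Gbp6 encode guanylate-binding proteins. Ifi47 was 6.88 in TMP195 replicate 4 and 7.18 in Combo replicate 4, the 2 lowest of the 16 libraries, and 8.94 in Vehicle replicate 4 and 8.99 in MYCi975 replicate 4, the 2 highest.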

How the data were processed

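RNA of enriched LLC1 tumour cells was purified on a spin column and made into stranded total RNA libraries, per the labels' protocols. The authors deposited variance-stabilised values on a log2 scale for 24334 mouse genes in 16 libraries, 4 per group. Salmon is the tool named, per the submitters' processing notes, which also give the build as hg38 for these mouse genes; for the annotation and the stabilisation settings the sources used here give nothing. Depth is unknown, no counts could be recovered, and no interval that needs a count was computed. Symbols were matched for 23150 genes (95.13%). Genes at least 1 above the lowest value in at least 4 libraries were tested (15715) with limma 3.58.1 in R 4.3.3, with 1 mean per group, an intensity trend and Benjamini-Hochberg adjustment within each of 6 comparisons. The test was checked on simulated data with independent noise and 200 genes shifted by 1. That check does not show how often smaller differences, such as those of the members, would be called. Single genes were also compared by exact permutation. Relations to Ptprc and to the interferon mean used 100000 permutations in numpy 2.4.6, adjusted over 20. P-values measure the spread between libraries, which may be partly technical.

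The members, lists and tests were chosen with earlier results of these data known. All members are named; of the other lists, Psmb5, Psmb6, Psmb7, Irf1, Rfx5, Ptprc and the 2 genes with the smallest p per list in each comparison with Vehicle, and the 6 genes most like the members. A further gene taken by the same rule is not reported here. Marker genes that could not be matched were not analysed here. Promoter sequences are RefSeq's (GRCm38.p6). Alternatives covered filters, moderation, normalisation, a replicate block, leukocyte covariates and left-out libraries.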

Additional observations from a re-analysis of the deposited data

Results flagged for a closer look

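Within groups of 4 libraries, the highest or lowest library was compared with its nearest neighbour as a share of the group's range. In 4 of 44 groups examined (10 members and Ptprc in 4 groups) this share exceeded the 95% critical value of Dixon's test for 4 values. Chance flags about 1 in 20 groups, and the genes are correlated, so these are not separate events.

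H2-D1 was highest in Vehicle replicate 4, with a share of 0.8583, and Tap2 was highest in the same library, with 0.8551. B2m was lowest in TMP195 replicate 4, with a share of 0.8698, and Psmb9 was lowest in the same library, with 0.8531. All 4 thus involve a library numbered 4.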

How the results depend on the processing

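Across all settings run, 0 members reached an adjusted p under 0.05 in limma, and the smallest was 0.501. Counts of all genes called, 0 throughout in the reported fits, were 1 for Combo minus Vehicle with the compared groups alone (Gm15452), and for Combo minus TMP195 1 without an intensity trend (Cd93) and 1 without the 2 libraries highest in leukocyte markers (Pdk1), names chosen after their values were seen. With each library left out in turn, they ran from 0 to 2 for TMP195 minus Vehicle and for Combo minus TMP195 (Csf1r and Ccr2 without TMP195 replicate 3, and Cd93 in the latter without Combo replicate 4), and from 0 to 1 for MYCi975 minus Vehicle and for Combo minus MYCi975 (Gm15801 without MYCi975 replicate 2).

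Without the libraries numbered 4 the members' median in TMP195 minus Vehicle was 0.32, with H2-K1 at 0.42, H2-D1 at 0.41, B2m at 0.17, Nlrc5 at 0.38, Tap1 at 0.38, Tapbp at 0.093, Psmb8 at 0.40 and Psmb9 at 0.25. With single libraries left out, the TMP195 difference ran from -0.31 to 0.16 for H2-K1, -0.31 to 0.19 for H2-D1, -0.40 to 0.15 for B2m, -0.43 to 0.19 for Nlrc5, -0.44 to 0.18 for Tap1, -0.45 to 0.082 for Tapbp, -0.47 to 0.10 for Psmb8 and -0.31 to 0.15 for Psmb9, highest without TMP195 replicate 4 or, for Psmb8, Vehicle replicate 4; without Vehicle replicate 4, H2-K1 (0.13), H2-D1 (0.11) and Tap1 (0.0022) were also above 0. Rfx5 ran from -0.26 to 0.049 and was 0.049 without the 2 libraries highest in leukocyte markers. In MYCi975, differences of all 10 members changed sign in 45 of 199 values over the settings; Nlrc5 was -0.092 with the leukocyte covariate and -0.15 without the 2 libraries highest in leukocyte markers, and with single libraries left out it ran from -0.18 to 0.24 and Psmb10 from -0.33 to 0.14. With Ptprc as covariate the members' median was 0.26 in Combo minus TMP195 (H2-K1 0.20, Nlrc5 0.16) and 0.28 for the interaction (H2-K1 0.19, Nlrc5 0.11); with the leukocyte covariate the interaction was 0.053 for H2-K1 and 0.018 for Nlrc5. The cause of these changes was not tested.

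The count of members related to Ptprc by Pearson's r was 0 in the reported values. It was 2 with group-centred values, 3 with number-centred values and 5 without the libraries numbered 4. With single libraries left out it ran from 0 to 4 (4 without TMP195 replicate 4). By Spearman's rho over 16 libraries, H2-K1 and Nlrc5 had adjusted permutation p-values of 0.0475 and 0.0485. For Ptprc, r was -0.129 for B2m and -0.21 for Tapbp without the 2 farthest libraries, and ran from -0.201 to 0.318 for Tapbp with single libraries left out. The count related to the interferon mean by Pearson's r was 4 without the libraries numbered 4. Counts without those libraries are a description only, since they held both ends of the members' range.

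Same-numbered libraries are not stated to share an animal or a day, and their deviations correlated by -0.24 to 0.428 over 24 pairs, with 15 over 0.1; 9 of 16 libraries correlated best with their own number. Fitted with a replicate block, the members' medians were -0.22, -0.03 and -0.43 against Vehicle, as without it, and 0 genes were called in any of the 6 comparisons. With the block Nlrc5 in Combo minus Vehicle had a limma p of 0.0615 (adjusted 0.832), so 0 members lay under an unadjusted 0.05, and in Combo minus MYCi975 a limma p of 0.0489 (adjusted 0.999). Depth is unknown, and differences of weakly expressed genes such as Psmb9 are compressed.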
